A study of Rattus norvegicus with 6 samples.

Results

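Genes of oxidative phosphorylation were read on Illumina beadchips in primary astrocytes from rats, grown in culture with or without an induced mutant TDP-43. The members were the probes whose platform symbol begins with Ndufa, Ndufb, Ndufc, Ndufs, Ndufv, Sdha, Sdhb, Sdhc, Sdhd, Uqcr, Cox4, Cox5, Cox6, Cox7, Cox8 or Atp5. Of 13337 genes named on the array 71 matched, each by 1 probe, and 66 of these were detected on 3 or more of the 6 arrays (detection p under 0.05) and were tested among 7580 genes. Of the 66, 63 were detected on all 6 arrays. The M337V group was 3 arrays of cells from GFAP-tTA/TRE-TDP43M337V rats, and the tTA group was 3 arrays of cells from rats with the GFAP-tTA transgene alone. RNA was taken 3, 4 or 6 days after doxycycline (Dox) was withdrawn from both, with 1 array per genotype and day. Dox withdrawal lets tTA, a transcription factor made under the promoter of the astrocyte gene Gfap, switch on the mutant transgene, so induction is limited to cells in which that promoter works. Whether cells of 1 genotype were grown as separate cultures is not in the labels, so p-values here measure only how the M337V minus tTA difference varied between the days.

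Oxidative phosphorylation is the route by which mitochondria turn the energy of nutrients into ATP. Complexes I (NADH dehydrogenase) and II (succinate dehydrogenase) pass electrons to quinone, complex III passes them on to cytochrome c and complex IV to oxygen, and complex V uses the proton gradient built on the way to make ATP. All of the complexes except complex II mix subunits from the nucleus with subunits from mitochondrial DNA, and the genes described here are nuclear. Astrocytes are known for a high rate of glycolysis, and they also respire.

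The symbol rule took in more than subunits. Of the 71 genes, 59 encode subunits and 12 do not: 9 assembly factors (Ndufaf1 to Ndufaf7, Sdhaf2 and Sdhaf3), which help build a complex without staying in it, the pseudogene Ndufs6-ps1, and the paralogs Ndufa10l1 and Cox7a2l. Cox7a2l is known as a factor that joins complexes III and IV. After the filter 54 subunits remained, 26 of complex I, 4 of complex II, 4 of complex III, 7 of complex IV and 13 of complex V. The 5 genes that failed the filter were the complex I subunits Ndufs4 and Ndufb4 and the tissue-restricted complex IV isoforms Cox6a2 and Cox8b (heart and skeletal muscle) and Cox8c (testis). Ndufs4, Cox6a2 and Cox8b were not above background on any array, and Ndufb4 and Cox8c were detected on 1 array each. The raw signal of Cox6a2 ran from 82.8 to 99.8 over the 6 arrays, and that of Cox8b from 81.5 to 110. Of the genes tested, Ndufs6-ps1 and Cox6c were detected on 5 arrays and Atp5mc3 on 3.

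Between 9856 and 10873 of 22523 probes per array were detected, at a mean signal of 377 to 554. Gfap was detected on every array. Tardbp, the rat gene of TDP-43, was at 0.23 ± 0.10 (log2, M337V minus tTA, adjusted p = 0.187), and whether its probe reads the transgene was not tested. Markers of other cells moved with the genotype. Of 15 microglia markers 13 were tested, 11 rose and none fell in M337V, and their summed normalized signal was 373 to 703 on tTA arrays and 9361 to 28754 on M337V arrays. Of these, Cx3cr1, C1qa, C1qc, Tyrobp and Ptprc were not detected on any tTA array and passed the filter through M337V alone. All of them except Cx3cr1 are in the count that rose. Among the other marker lists 5 of 7 oligodendrocyte lineage, 6 of 9 neuron and 5 of 5 ependymal genes rose, and 4 of 5 fibroblast genes fell while 1 (Lum) rose. Of these, Snap25 and Ina (neuron) and Lum were detected on no tTA array and passed the filter through M337V alone. Over all genes tested, 9.75% were higher and 9.85% lower in M337V. From day 3 to day 6, 6 microglia markers and 1 ependymal gene rose, and 2 fibroblast genes and 1 neuron gene fell. Over all genes tested, 1.73% rose and 1.09% fell between these days. Of 7 astrocyte markers 2 rose and none fell, and their summed signal was 70465 to 83393 in tTA and 84106 to 87143 in M337V. The part of these cells in the values below was not tested, and in bulk RNA fewer cells of a type and less RNA per cell cannot be told apart.

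The first question of the design is which genes differ between M337V and tTA astrocytes of the same day. No subunit of complexes I to V passed the test, and the members that did were both assembly factors of complex I. Ndufaf7 was higher and Ndufaf6 lower in M337V, each by about 1.5-fold (1.54-fold and 1.51-fold). In limma's fit with the day as a block, 2 of 66 members (3.03%) had an adjusted p under 0.05, against 19.6% of all 7580 genes. By direction 1 member was higher and 1 lower, against 9.75% and 9.85% of all genes. For the 54 subunits the count was 0, with 4 at an unadjusted p under 0.05 (Ndufab1, Sdhd and Sdha above 0 and Ndufb6 below), where 34.1% of all genes had one. The smallest difference that passed among all genes was 0.37 on the log2 scale, so no gene with a difference in the subunits' range was called, and a missed threshold does not show equal levels. Among tested genes with a mean level over 10 (log2 of normalized signal), 14.8% of 1394 passed, and of the 45 members in that range 0 did.

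The subunit differences were also small. They ran from -0.28 to 0.32 (log2, M337V minus tTA) with a median of 0.07, against a median of -0.05 over all genes. The standard deviation of the differences was 0.13 over the 54 subunits and 0.57 over the 7580 genes. None of the 54 subunits was 1.5-fold apart, where 14.7% of all genes were, and 9.4% of those with a mean level over 10. The 95% interval of the difference lay within 1.5-fold in both directions for all 54 subunits and for 4556 of the 7580 genes (60.1%). These intervals are per gene, and without day 4 they lay within 1.5-fold for 39 of the 54.

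**Figure D1:**
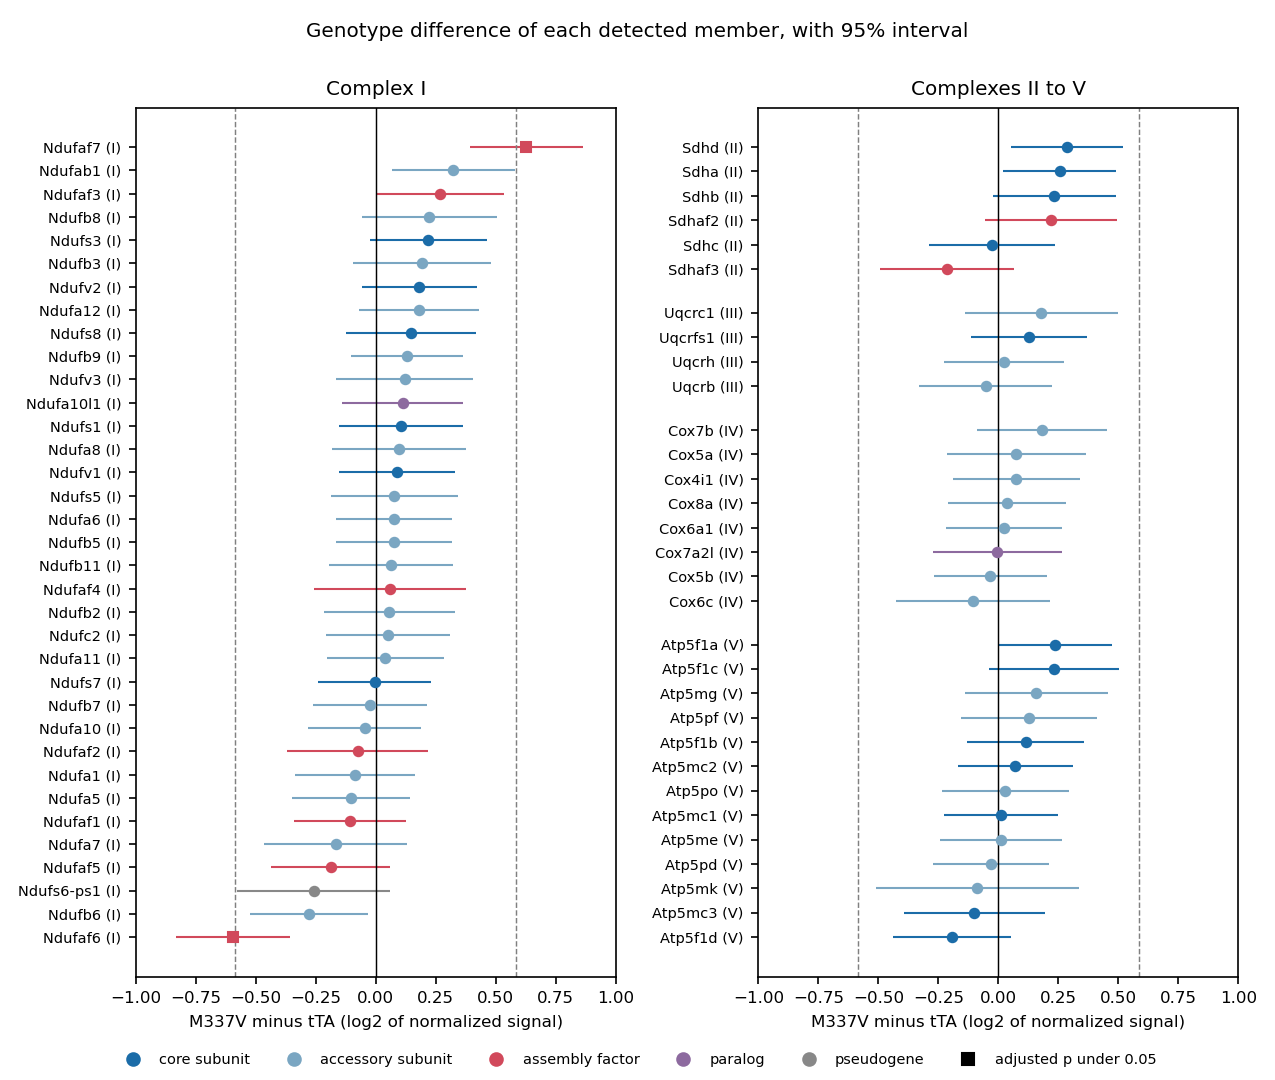
Difference between M337V and tTA (log2 of normalized signal, horizontal axis) for each of the 66 tested members, by complex, with points for the fitted value and bars for the 95% interval (n = 3 days). Squares mark the members that passed (Ndufaf7 at 0.63 and Ndufaf6 at -0.60), and the dashed lines mark 1.5-fold, which no subunit's interval crosses.

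**Figure D2:**
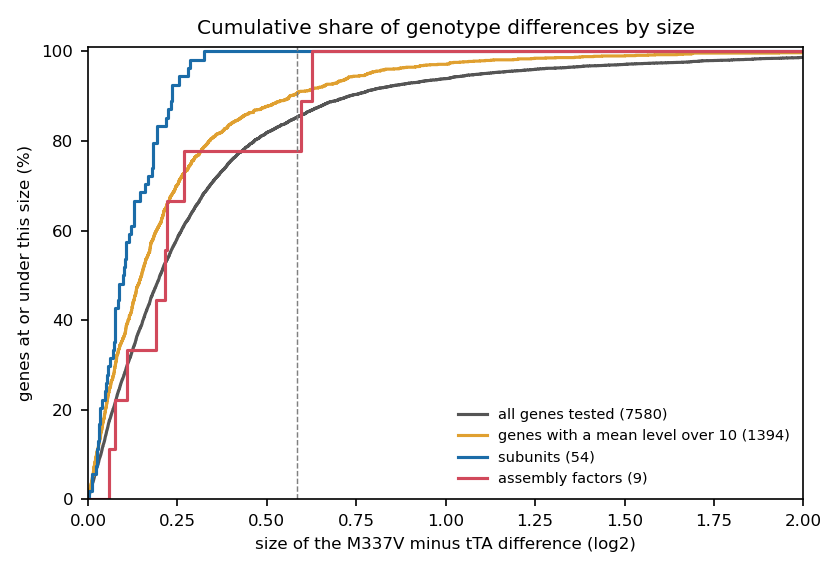
Cumulative percentage of genes (vertical axis) whose genotype difference is at or under a given size (log2, horizontal axis) for all genes tested, genes with a mean level over 10, the 54 subunits and the 9 assembly factors. The subunit line reaches 100% at 0.32, left of the dashed line at 1.5-fold, where 14.7% of all genes still lie to the right.

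Ndufaf6 belongs to the early factors of complex I assembly, and in human cells its loss impairs the mitochondrially encoded subunit ND1. Its probe (ILMN_1367125) read 7.997, 8.07 and 8.19 in tTA on days 3, 4 and 6, and in M337V it read 7.45, 7.48 and 7.53. All 3 M337V arrays were below all 3 tTA arrays. The difference was -0.60 ± 0.10 (SE, n = 3 days, 95% interval -0.83 to -0.36, adjusted p = 0.0131).

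Ndufaf7 is a methyltransferase that takes part in complex I assembly. Its probe (ILMN_1359207) read 7.86, 7.81 and 7.94 in tTA and 8.49, 8.47 and 8.53 in M337V. Here every M337V array was above every tTA array. The difference was 0.63 ± 0.09 (SE, 95% interval 0.39 to 0.86, adjusted p = 0.0110). Both genes kept their direction in all 15 alternatives and passed in 14. Neither passed without day 4 (adjusted p = 0.0774 for Ndufaf6 and 0.0724 for Ndufaf7), while both passed without day 3 or without day 6. Without day 4 their differences were -0.60 and 0.61, and 8.32% of all genes passed. With the authors' deposited values the differences were smaller, -0.43 and 0.49.

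The other 7 assembly factors did not pass. Ndufaf3, which with Ndufaf4 helps form the quinone-binding part of complex I, stood at 0.27 ± 0.11 (adjusted p = 0.142), and its M337V arrays (9.12, 9.14 and 9.15) all lay above its tTA arrays (8.69, 8.97 and 8.95). Ndufaf4 itself was at 0.06 ± 0.13. Ndufaf5, which in human cells hydroxylates NDUFS7, was at -0.19 ± 0.10 with all M337V arrays (8.93, 8.94 and 8.78) below all tTA arrays (9.04, 9.12 and 9.07). Ndufaf1 and Ndufaf2 were at -0.11 ± 0.09 and -0.08 ± 0.12. The complex I factors thus lay on both sides of 0, 3 above and 4 below.

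Of the complex I core, which carries the flavin and the iron-sulfur clusters, 6 subunits were tested. Ndufv1 and Ndufv2, of the part that oxidises NADH, were at 0.09 ± 0.10 and 0.18 ± 0.10, and Ndufs1, of the same part, at 0.11 ± 0.10. Ndufs8, whose groups of arrays overlapped, was at 0.15 ± 0.11. Ndufs3 was at 0.22 ± 0.10 (95% interval -0.02 to 0.46, adjusted p = 0.182) and passed with a variance trend (0.0480). Ndufs7, which carries the cluster next to quinone, read 9.32, 9.41 and 9.68 in tTA and 9.32, 9.45 and 9.64 in M337V. It was nearest to 0 of the complex, at 0.00 (fitted -0.0042, 95% interval -0.24 to 0.23).

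Among the accessory subunits of complex I, the mitochondrial acyl carrier protein Ndufab1 had the highest difference. It read 11.17, 11.05 and 11.13 on the tTA arrays and 11.40, 11.52 and 11.40 on the M337V arrays, and the groups did not overlap. The difference of 0.32 ± 0.10 did not pass (adjusted p = 0.0846). Ndufb6, of the membrane arm, had the lowest. Its levels were 9.82, 9.80 and 9.72 in tTA and 9.61, 9.57 and 9.33 in M337V, again without overlap, at -0.28 ± 0.10 (adjusted p = 0.110). Both passed in 2 alternatives or more (adjusted p 0.0069 to 0.376 for Ndufab1 and 0.0207 to 0.317 for Ndufb6).

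The remaining membrane arm subunits lay between these. Ndufb8 was at 0.22 ± 0.11, Ndufb3 at 0.19 ± 0.12 and Ndufb9 at 0.13 ± 0.09. Ndufb5, Ndufb11, Ndufb2 and Ndufc2 differed by 0.05 to 0.07, and Ndufb7 was at -0.03 ± 0.10. None of them passed. Ndufa10 read 11.71, 11.84 and 11.85 in tTA and 11.69, 11.81 and 11.76 in M337V (-0.05 ± 0.09). Its paralog Ndufa10l1 was at 0.11 ± 0.10, and whether the probes tell the transcripts apart was not tested. Ndufa12 (0.18 ± 0.10), Ndufa8 (0.10 ± 0.11), Ndufa6 (0.08 ± 0.10), Ndufs5 (0.08 ± 0.11), Ndufv3 (0.12 ± 0.12) and Ndufa11 (0.04 ± 0.10) were above 0. Ndufa5 (-0.10 ± 0.10), Ndufa1 (-0.09 ± 0.10) and Ndufa7 (-0.17 ± 0.12) were below. The pseudogene Ndufs6-ps1, close to background, was at -0.26 ± 0.13 (adjusted p = 0.221).

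Complex II stood higher than the other complexes in its median, 0.23 over 6 members, though no member passed. It joins respiration to the citric acid cycle, and none of its subunits is encoded in mitochondrial DNA. Sdha, the flavoprotein that oxidises succinate, read 10.66, 10.77 and 11.03 on the tTA arrays and 10.88, 11.01 and 11.34 on the M337V arrays. On each day the M337V array was the higher of the pair, although the groups overlapped, with higher levels on later days in both. The difference was 0.26 ± 0.09 (95% interval 0.02 to 0.49, adjusted p = 0.125).

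Sdhb, the iron-sulfur subunit, read 10.69, 11.03 and 10.95 in tTA and 11.03, 11.13 and 11.20 in M337V. The lowest M337V array was above the highest tTA array by a narrow margin, and the difference was 0.23 ± 0.10 (adjusted p = 0.175). Sdhd, a membrane anchor, read 11.27, 11.27 and 11.38 in tTA and 11.53, 11.59 and 11.66 in M337V. Its groups were clear of each other, at 0.29 ± 0.09 (adjusted p = 0.0917). The other anchor, Sdhc, did not follow. It read 12.49, 12.77 and 12.82 in tTA and 12.61, 12.74 and 12.66 in M337V, with a difference of -0.03 ± 0.11 (95% interval -0.29 to 0.24). With a variance trend Sdha, Sdhb and Sdhd passed, and without background correction Sdha and Sdhd did. With median scaling their differences were smaller, at 0.12, 0.08 and 0.12 for Sdha, Sdhb and Sdhd, and with the deposited values they were 0.16, 0.12 and 0.16, and none passed in either. The factors went apart: Sdhaf2, which helps attach the flavin to SDHA in human cells, was at 0.22 ± 0.11, and Sdhaf3 at -0.21 ± 0.11.

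**Figure D3:**
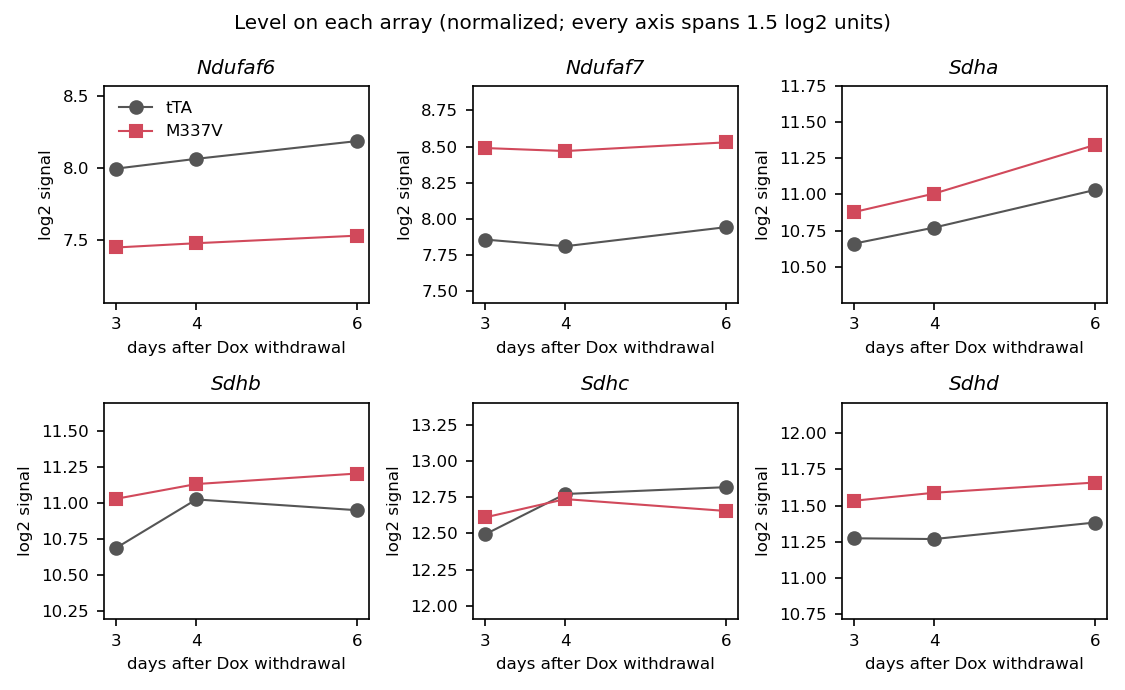
Normalized level (log2 signal, vertical axes of equal span) against days after Dox withdrawal for Ndufaf6, Ndufaf7 and the 4 subunits of complex II, with 1 array per point, circles for tTA and squares for M337V. Ndufaf6 and Ndufaf7 lie apart on all days in opposite directions, Sdha, Sdhb and Sdhd lie higher in M337V on all days by smaller amounts, and the lines of Sdhc cross.

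Complex III had 4 members, with a median of 0.08. Uqcrfs1, the Rieske iron-sulfur protein that hands electrons on from quinol, was at 0.13 ± 0.10. The core protein gene Uqcrc1 was at 0.18 ± 0.13, with 10.17, 10.48 and 10.64 in tTA and 10.58, 10.70 and 10.55 in M337V, so the M337V array was the higher on days 3 and 4 and the lower on day 6. Uqcrb was at -0.05 ± 0.11. The hinge protein gene Uqcrh was nearest to 0, at 0.02 ± 0.10 (95% interval -0.23 to 0.27).

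In complex IV the 8 members had a median of 0.03 and the groups of arrays overlapped for each of them. Cox4i1, the largest nuclear subunit, read 12.62, 12.74 and 12.82 in tTA and 12.85, 12.67 and 12.88 in M337V (0.07 ± 0.11). The widely expressed isoforms Cox6a1 and Cox8a were at 0.02 ± 0.10 (95% interval -0.22 to 0.26) and 0.03 ± 0.10 (-0.21 to 0.28), while the probes of their muscle counterparts Cox6a2 and Cox8b stayed at background in both genotypes. Cox5a was at 0.07 ± 0.12, Cox5b at -0.03 ± 0.09 and Cox7b at 0.18 ± 0.11. Cox6c, read near background, was at -0.11 ± 0.13. Cox7a2l was at 0.00 (fitted -0.0045, 95% interval -0.27 to 0.26), the nearest to 0 in this complex.

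The 13 members of complex V had a median of 0.03. In its catalytic head, the alpha subunit gene Atp5f1a read 12.78, 13.02 and 13.04 in tTA and 13.03, 13.20 and 13.31 in M337V (0.23 ± 0.09, adjusted p = 0.150), higher in M337V on each day. The beta subunit gene Atp5f1b, which holds the catalytic sites, was at 0.11 ± 0.10. Of the central stalk, Atp5f1c was at 0.23 ± 0.11 and Atp5f1d at -0.19 ± 0.10, and for both the groups did not overlap. None of these passed, though Atp5f1a did without background correction and with a variance trend, Atp5f1c with a variance trend and Atp5f1d with the deposited values.

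The c ring, which turns with the proton flow, is encoded by 3 genes for 1 mature protein. Atp5mc1 was at 0.01 ± 0.09, Atp5mc2 at 0.07 ± 0.10 and Atp5mc3, detected on 3 arrays, at -0.10 ± 0.12. The peripheral stalk genes Atp5po, Atp5pf and Atp5pd were at 0.03 ± 0.11, 0.13 ± 0.11 and -0.03 ± 0.10. In the membrane part Atp5mg was at 0.16 ± 0.12 and Atp5me, the nearest to 0, at 0.01 ± 0.10. Atp5mk had the widest error, -0.09 ± 0.17, with 8.70, 7.997 and 8.45 in tTA and 8.32, 8.37 and 8.20 in M337V.

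Groups of arrays that did not overlap were found for 14 of the 66 members (21.2%), 9 higher and 5 lower, against 34.0% of all genes. Besides those named above with levels or as not overlapping, they were Ndufa5, Ndufa12, Ndufb8 and Sdhaf2. The sign was the same on all 3 days for 32 of the 66, of which 22 were higher and 10 lower in M337V. That is 48.5% of the members, against 55.3% of all genes.

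The design next asks how the difference looked on each day. The members at least 1.5-fold apart numbered 1 on day 3 (1.52%), 1 on day 4 (1.52%) and 2 on day 6 (3.03%), against 19.3%, 16.5% and 18.9% of all genes. These values rest on 1 array per genotype and have no test. They were Ndufaf7 on each of the days (1.55-fold, 1.58-fold and 1.5-fold higher) and Ndufaf6 on day 6. On that day Ndufaf6 was at -0.66 (log2, M337V minus tTA). The median over the 66 members was 0.12, 0.03 and 0.03 on days 3, 4 and 6, and over all genes -0.02, -0.04 and -0.07. For complex II it was 0.24, 0.13 and 0.17, and for complex I 0.15, 0.01 and 0.02. Complex III had 0.14, 0.07 and -0.0065, complex IV 0.0032, 0.02 and 0.04, and complex V 0.05, 0.14 and 0.02, so the order of the days was not the same in all complexes. The M337V array of day 3 had the lowest mean signal of the 6 (377), and its part in the day 3 median was not tested.

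Whether the genotype difference grew or shrank with time was tested for each gene as a slope per day. No member passed, as was so for all genes (0.0% of 7580). Of the 66 members 0 had an unadjusted p under 0.05, where 743 of all 7580 genes did. Member slopes ran from -0.16 to 0.14 log2 units per day. The 3 members with the smallest p on the negative side were Uqcrc1 (-0.16 ± 0.08, unadjusted p = 0.0890), Cox6c (-0.16 ± 0.08) and Atp5mg (-0.14 ± 0.08). On the positive side they were Ndufa7 (0.14 ± 0.08), Cox5a (0.13 ± 0.08) and Atp5mc3 (0.13 ± 0.08). For Atp5mg the pairs read 12.36 and 12.71 on day 3, 12.28 and 12.47 on day 4, and 12.38 and 12.31 on day 6, tTA first. A slope is estimated here with 1 residual degree of freedom.

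A further comparison is the change from day 3 to day 6 over both genotypes. No member passed in limma's fit, where 2.82% of all genes did (1.73% higher and 1.09% lower on day 6). An unadjusted p under 0.05 was found for 4 of the 66 members, namely Ndufa7, Sdha, Ndufs3 and Ndufs7 (6.06%, against 22.4% of all genes). Ndufa7, an accessory subunit of complex I, was the 1 member at least 1.5-fold apart, against 9.78% of all genes. It went from 7.47 over 7.07 to 6.61 on the tTA arrays and from 7.09 over 6.90 to 6.66 on the M337V arrays. The levels were lower on each later day in both genotypes, by -0.64 ± 0.15 from day 3 to day 6 (adjusted p = 0.0832). The difference was -0.37 without background correction and -0.40 with the deposited values, both under 1.5-fold.

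Sdha went the other way, with 0.42 ± 0.12 (adjusted p = 0.119), and was higher on each later day in both genotypes. The core subunits Ndufs3 and Ndufs7 followed at 0.35 ± 0.12 (adjusted p = 0.175) and 0.34 ± 0.12 (0.170). The next on the negative side after Ndufa7 were Ndufb6, Cox5b and Atp5mg, each at -0.19. The 18 core subunits were 6 of complex I, 4 of complex II, 1 of complex III and 7 of complex V. Of them 16 were above 0, with a median of 0.17. Of the 36 accessory subunits 16 were, with a median of -0.02. The median over all genes was -0.01, with 3679 of 7580 above 0. These values are from quantile normalization, where the median of the 66 members was 0.06, with 41 above 0. With median scaling it was 0.0039, with 33 above 0, and the 2 kinds of subunit were not read apart there. Ndufa7 passed in 4 of 11 alternatives, Sdha in 3, Ndufs3 in 2 and Ndufs7 in 1. Ndufaf6 and Ndufaf7 stood at 0.14 ± 0.12 and 0.06 ± 0.12 in this comparison.

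The direction of the small shift depended on how the arrays were scaled. With quantile normalization 44 of the 66 members were above 0, and with cyclic loess 45 were. With the authors' deposited values 25 were, and with median scaling 21. The median of the 66 was accordingly 0.07, 0.07, -0.05 and -0.09 with these 4 settings. Scaling moved all genes too, with medians of -0.05, 0.01, -0.08 and -0.11. Taken relative to those, the members' median was above the median of all genes by 0.12, 0.06, 0.03 and 0.02. Complex II was above it by 0.28, 0.25, 0.22 and 0.21, and complexes IV and V lay below it under median scaling and in the deposited values. No subunit passed with median scaling or cyclic loess, and with the deposited values Atp5f1d and Ndufb6 did, both lower. The count of subunits that passed was 5 without background correction and 8 with a variance trend, in fits where 25.0% and 26.4% of all genes passed.

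**Figure D4:**
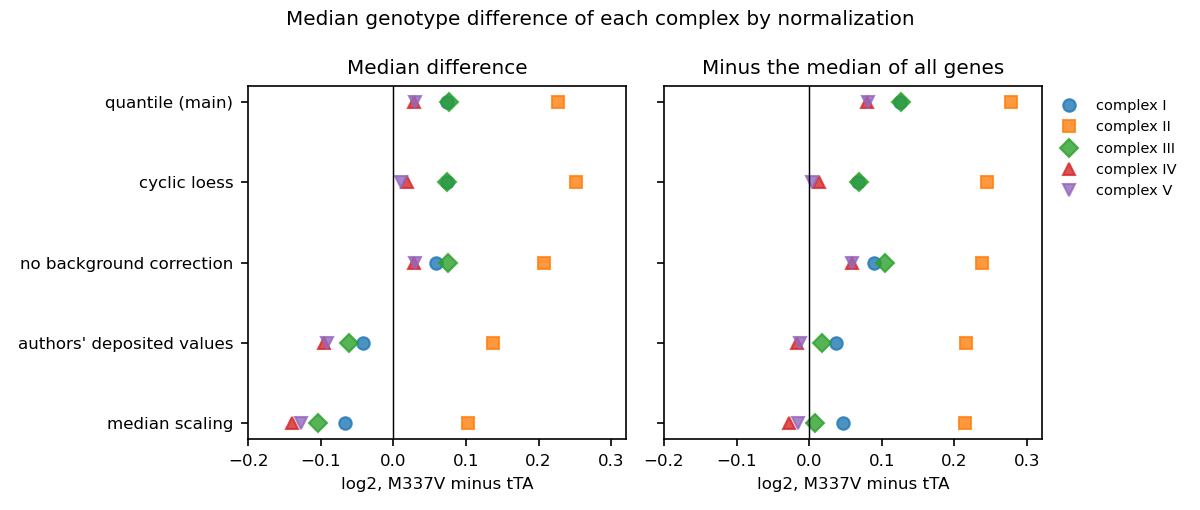
Median genotype difference (log2, M337V minus tTA) over the members of complexes I to V under 4 ways of scaling the arrays and without background correction, as fitted (left) and after subtraction of the median of all genes (right), with 1 symbol per complex and no error bars. Complex II lies at 0.10 to 0.25 on the left in all 5, and the other complexes change side with the authors' deposited values and with median scaling.

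Lists of genes around the respiratory chain were read in the same fit, in which 19.6% of all 7580 genes passed. Of 19 further assembly factors tested, outside the symbol rule, Nubpl rose (0.39 ± 0.09, adjusted p = 0.0411) and none fell, with a median of 0.00 (0.0039). Nubpl carries iron-sulfur clusters to complex I. A list of 14 genes held electron carriers, nucleotide exchange genes and others such as the aldehyde oxidase gene Aox1. In it the ADP/ATP carrier gene Slc25a5 rose by 0.38 ± 0.09 (adjusted p = 0.0447). Aox1, which is not a carrier of the chain, fell by 0.44 ± 0.11 (adjusted p = 0.0452). Cytochrome c (Cycs) was at -0.02 ± 0.10.

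None of 14 biogenesis genes and none of 17 genes of the citric acid cycle and pyruvate dehydrogenase passed in limma's fit, with medians of 0.01 and -0.01, and in each list 2 genes had an unadjusted p under 0.05. Tfam, which packages and transcribes mitochondrial DNA, was at 0.15 ± 0.10, and Gabpa, a subunit of the factor known as NRF-2, at 0.13 ± 0.13. Of 20 glycolysis and lactate genes the phosphofructokinase gene Pfkl rose (0.48 ± 0.10, adjusted p = 0.0297) and the enolase gene Eno2 fell by 0.60 ± 0.11 (adjusted p = 0.0174). Among 18 genes of mitochondrial shape and quality control Clpx, a chaperone of the matrix protease, fell by 0.63 ± 0.10 and Opa1, the GTPase of inner membrane fusion, fell by 0.50 ± 0.12 (adjusted p = 0.0114 and 0.0389). Of 11 antioxidant genes Txnrd2, the mitochondrial thioredoxin reductase, fell by 0.40 ± 0.10 (adjusted p = 0.0496). The list medians lay between -0.04 and 0.04. These counts stand beside the 19.6% of all genes that passed in this fit. The alternatives are given here for the members only, so how these calls depend on the processing is not shown.

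Nuclear genes of the respiratory chain are known to share promoter motifs, above all those of the factors NRF1, NRF-2 (an ETS factor), ERR and YY1. Promoters from RefSeq (GRCr8, 250 bases before to 50 after the start) were matched for 57 of the 66 members, and letters were searched on both strands. The NRF1 motif, spelled out in the stretches shown next, was in 15 of 57 (26.3%), against 10.7% of the 6314 promoters of tested genes and 4.25% of all 33469. The ETS letters CCGGAAG were in 19 (33.3%, against 18.7% and 8.75%). The ERR letters AAGGTCA were in 7 (12.3%, against 2.85% and 4.61%), and the YY1 motif was in 5 (8.77%, against 2.69% and 0.98%). The shares of the other motifs were 7.02% against 19.8% for GGGGCGGGG (Sp1), 10.5% against 9.52% for CACGTG (E-box) and 33.3% against 38.6% for CCAAT. These counts describe letters and have no test.

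To show what the shared letters look like, 30-base stretches upstream of the start are given 5′ to 3′ on the gene's strand for members of complexes I, II, III, IV and V, with the match in capitals. They are NRF1 matches in the first 6, ERR in the next 2 and ETS in the last 2.
Ndufa12 (chr7:30658194-30658223, plus strand): ctccagctctGCGCGTGCGCagagcgacct
Sdha (chr1:30764454-30764483, plus strand): cgtttgcagaGCGCAGGCGCaccaccactc
Uqcrc1 (chr8:118468149-118468178, plus strand): cttccttacaGCGCCTGCGCctcatactcc
Atp5mc2 (chr7:135678255-135678284, minus strand): ggctctagtcGCGCATGCGCagagccttct
Atp5me (chr14:1464774-1464803, plus strand): ttgcgctacgGCGCATGCGCtttcctggct
Atp5po (chr11:44657523-44657552, minus strand): acgccgacgcGCGCATGCGCtctggcatca
Ndufb2 (chr4:69334103-69334132, plus strand): gccgaagcaatAAGGTCAgctaagagcacc
Atp5mg (chr8:54130408-54130437, minus strand): agggggcagccTGACCTTagaagtggggaa
Sdhb (chr5:158547815-158547844, plus strand): tactcgggataCCGGAAGctgccttccact
Cox5b (chr9:46417807-46417836, plus strand): cttgctctgtctgttcCCGGAAGtgcatct

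The promoter of Ndufaf7, the member that was higher in M337V, is shown beside them for its last 120 bases before the start (chr6:21871966-21872085, minus strand). None of the 7 motifs was found there, so it has no capitals.
Ndufaf7: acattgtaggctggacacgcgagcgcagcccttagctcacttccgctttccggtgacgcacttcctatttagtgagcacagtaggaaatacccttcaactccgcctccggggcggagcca
Ndufaf6 was among the 9 members without a matched promoter, so its promoter was neither searched nor shown.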

How the data were processed

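RNA of M337V and tTA astrocytes was hybridised to Illumina rat beadchips, 1 array per genotype and day. The submitters' processing notes name GenomeStudio without a version. Per the file headers, the deposited intensity of a probe is the average signal of its beads, linear and not normalized. It also holds a detection p-value per probe and array, per the file headers. The deposited value table holds log2 values, which match, in differences between arrays, the log2 signal after subtraction of the upper quartile of that array (within 0.00215). Its column medians lay between -0.15 and 0.07, and how each probe was centred is unknown.

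Gene names came from the platform annotation (13793 of 22523 with 1 symbol), and 8730 stay unnamed. Values were made in limma 3.58.1 (R 4.3.3) by normexp correction from the detection p-values, an offset of 16, quantile normalization and log2. Probes detected on at least 3 arrays were kept (10478), with the brightest per gene. Genotype and day (as a block) were fitted by lmFit and eBayes, with 2 residual and 3.53 prior degrees of freedom, so errors rest partly on other genes. Slopes had 1 and 4.72. Deviations from the group means were correlated between same-day arrays on days 3 and 6 (r = 0.44 and 0.42) and hardly on day 4 (0.08). Arrays of different days were not compared in this way. The pairing is by the day in the labels. Benjamini-Hochberg adjustment was over 7580 genes. In a simulation of the genotype fit, 200 of 7580 genes were shifted by a set log2 amount. It called 0 of them at 0.25 and 0 at 0.5. At shifts of 1 and 2 it called 166 and 197, with 11 and 10 false calls. The data differ from this setting, since 19.6% of all genes were called in them, so these counts do not carry over. In the data the smallest difference that passed was 0.37. A missed call therefore cannot exclude differences of the size seen in the subunits. The precision of each value is limited by the number of arrays. The members, lists and tests were chosen with earlier results of these data known. All tested members are named. Alternatives were other scalings, filters, probe rules, priors, designs and leaving out each day.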

Additional observations from a re-analysis of the deposited data

How the results depend on the processing

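Ndufaf6 and Ndufaf7 passed under 14 of 15 alternatives (adjusted p 0.0019 to 0.0774 and 0.00067 to 0.0724). Leaving out each day in turn gave counts of 0 to 1 higher and 0 to 1 lower members, with 0 and 0 without day 4. Without days 3, 4 and 6 the share of all genes called was 13.9%, 8.32% and 13.5%, against 19.6% with all days. Without the replicate block, that is with the days not paired, the counts stayed at 1 and 1 for the same genes. The block changed no other call among the members, while 12.7% of all genes were called without it. Without background correction 5 members were called higher and 2 lower, with a variance trend 8 and 2, and with the authors' deposited values 1 and 3, in fits that called 25.0%, 26.4% and 24.5% of all genes. For day 6 against day 3 the counts were 2 and 1 without background correction, 3 and 1 with a variance trend and 1 and 1 with the deposited values, where 10.5%, 12.2% and 9.21% of all genes were called. With probes detected on all 6 arrays they were 0 and 1 (7.78% of all genes). The cause of these changes was not tested. Median differences of complexes I to V were -0.066, 0.10, -0.10, -0.14, -0.13 with median scaling and -0.041, 0.14, -0.061, -0.096, -0.092 with the deposited values. A sign change under at least 1 alternative was found for 33 of the 66 members, none of them called and among them Atp5mg, at 0.16. With median scaling these were Cox6a1 -0.20, Atp5po -0.18, Uqcrh -0.17, Atp5mc1 -0.16, Atp5me -0.15, Cox8a -0.15, Cox4i1 -0.13, Ndufc2 -0.10, Ndufs5 -0.099, Ndufb2 -0.098, Ndufb5 -0.096, Ndufa11 -0.094, Atp5f1b -0.090, Cox5a -0.087, Ndufa6 -0.084, Atp5mc2 -0.082, Ndufb11 -0.066, Ndufa10l1 -0.058, Atp5pf -0.046, Uqcrfs1 -0.040, Ndufb9 -0.037, Atp5mg -0.017, Ndufs1 -0.010. With the deposited values they were Cox6a1 -0.16, Atp5po -0.14, Uqcrh -0.12, Atp5mc1 -0.12, Atp5me -0.11, Cox8a -0.11, Cox4i1 -0.083, Ndufc2 -0.059, Ndufb2 -0.056, Ndufs5 -0.055, Ndufb5 -0.052, Ndufa11 -0.051, Atp5f1b -0.046, Cox5a -0.044, Ndufa6 -0.041, Atp5mc2 -0.040, Ndufb11 -0.024, Ndufa10l1 -0.015, Atp5pf -0.0049. With cyclic loess they were Cox6a1 -0.0090, Atp5me -0.00058, Cox7a2l 0.019, Ndufs7 0.039, Ndufaf2 0.057. Over the fits that leave out 1 day the ranges were Atp5mc1 -0.015 to 0.034, Atp5mc3 -0.19 to 0.0098, Atp5me -0.026 to 0.077, Atp5mk -0.32 to 0.063, Atp5po -0.045 to 0.10, Cox4i1 -0.0016 to 0.14, Cox5a -0.030 to 0.17, Cox6a1 -0.013 to 0.058, Cox6c -0.24 to 0.016, Cox7a2l -0.084 to 0.071, Cox8a -0.013 to 0.078, Ndufa11 -0.0012 to 0.080, Ndufaf4 -0.084 to 0.15, Ndufb11 -0.0091 to 0.12, Ndufb2 -0.038 to 0.12, Ndufb7 -0.054 to 0.0050, Ndufc2 -0.022 to 0.10, Ndufs7 -0.024 to 0.017, Sdhc -0.10 to 0.041, Uqcrb -0.11 to 0.047, Uqcrh -0.023 to 0.079. Signal over background limits Atp5mc3, Cox6c and Ndufs6-ps1, and the 5 members that failed the filter were fitted only with no filter on dim probes (-0.17 to 0.04, none called).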
